A study of Mus musculus with 16 samples.

Results

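The genes described here are 10 that carry pyruvate into the mitochondrion, turn it into acetyl-CoA and set how active that step is: Mpc1 and Mpc2, Pdha1, Pdhb, Dlat and Pdhx, the kinase genes Pdk1, Pdk2 and Pdk4, and the phosphatase gene Pdp2. They were chosen by name, with earlier results of these data known, and each matched 1 of the 46078 gene IDs of the count table. The tissues, from wild type C57BL/6 mice labelled female and 16 weeks old, were brown fat (BAT) and inguinal white fat (WAT), read by RNA sequencing in 4 groups of 4 libraries. All animals were bred at 30 °C. Those of BAT_30C and WAT_30C stayed there, and those of BAT_5C and WAT_5C, once 10 to 12 weeks old, spent 2 weeks at 18 °C before 3 weeks at 5 °C. Every animal had 2 to 3 h without food before tissue was taken. No label says whether both tissues came from the same animals or whether animals were pooled, so p-values measure the spread between these libraries.

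Pyruvate made by glycolysis in the cytosol crosses the inner mitochondrial membrane through a carrier built from Mpc1 and Mpc2. In the matrix the pyruvate dehydrogenase complex (PDH) converts it to acetyl-CoA: Pdha1 and Pdhb encode the subunits of the E1 enzyme that removes CO2, Dlat encodes the E2 core, Pdhx the protein that tethers the E3 enzyme to that core, and Dld the E3 enzyme itself. Kinases of the Pdk family phosphorylate the Pdha1 product and switch the complex off, and the phosphatases encoded by Pdp1 and Pdp2 switch it on again. Pdk4 is known as the family member that follows fatty acid supply and fasting, and brown fat is known for burning both glucose and fatty acids to make heat.

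The 16 libraries held between 54264023 and 71289020 counts. Ucp1, the uncoupling protein of thermogenic fat, had 631 to 2014 CPM (counts per 1000000 counts of a library, whose size was scaled by edgeR's TMM method) in BAT_30C and 12076 to 13461 in BAT_5C, against 0.0858 to 0.330 in WAT_30C and 6.23 to 404 in WAT_5C. Hoxc10, a gene of inguinal fat, had no count in any BAT library, although the tissue label of the BAT libraries also carries the word inguinal, and Zic1, a gene of interscapular brown fat, stood at 8.29 CPM or more in every BAT library and at 0.139 or less in every WAT library. For 4 of the 8 BAT libraries (BAT_30C replicates 3 and 4, BAT_5C replicates 1 and 2) the source label gives the other temperature than the title and housing label, which were used here. One library, WAT_5C replicate 1, was unlike the rest. Its Xist count was 3, where the other 15 libraries had 11136 to 88934, it had 17183 counts of 4 Y-linked genes where they had at most 45, and its geometric mean was 0.6004 CPM over 14 mammary epithelium genes, where it was 20.0 to 26.2 in the other WAT libraries. The Xist and Y-linked counts of this library are those of male tissue, although its label says female. The WAT_5C tests, levels and ratios of the 10 genes are therefore given with and without it where they turn on it.

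The 250 bases before the start of transcription are shown for 5 of the genes. Mpc1 and Mpc2 are shown because their levels kept nearly the same ratio in all libraries, Pdk4 because it differed most between the tissues, and Pdk2 and Pdp2 because they held the only match among 5 motifs searched. Sequences and positions are those of RefSeq on GRCm38.p6, 5′ to 3′ on the strand of the gene, and capitals mark CACGTG, the E-box.
Mpc1, chr17:8283537-8283786, plus strand: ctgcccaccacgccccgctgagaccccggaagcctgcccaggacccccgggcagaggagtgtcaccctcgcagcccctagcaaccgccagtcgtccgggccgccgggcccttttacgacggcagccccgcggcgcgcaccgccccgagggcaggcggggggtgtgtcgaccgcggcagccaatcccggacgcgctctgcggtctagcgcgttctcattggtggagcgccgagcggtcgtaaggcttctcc
Mpc2, chr1:165461010-165461259, plus strand: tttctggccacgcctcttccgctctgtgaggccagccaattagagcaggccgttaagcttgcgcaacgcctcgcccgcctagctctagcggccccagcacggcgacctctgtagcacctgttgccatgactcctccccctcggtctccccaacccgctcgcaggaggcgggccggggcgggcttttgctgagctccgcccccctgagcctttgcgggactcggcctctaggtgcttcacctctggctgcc
Pdk4, chr6:5496279-5496528, minus strand: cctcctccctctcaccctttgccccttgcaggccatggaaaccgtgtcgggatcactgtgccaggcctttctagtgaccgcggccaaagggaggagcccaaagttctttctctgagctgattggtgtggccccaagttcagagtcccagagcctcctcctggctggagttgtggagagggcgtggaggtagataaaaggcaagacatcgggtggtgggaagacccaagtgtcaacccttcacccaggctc
Pdk2, chr11:95041372-95041621, minus strand: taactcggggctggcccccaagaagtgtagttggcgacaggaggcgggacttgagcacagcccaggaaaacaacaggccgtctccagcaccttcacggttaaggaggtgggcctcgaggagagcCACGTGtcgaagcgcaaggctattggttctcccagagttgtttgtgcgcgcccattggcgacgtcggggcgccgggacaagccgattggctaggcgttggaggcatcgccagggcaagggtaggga
Pdp2, chr8:104591222-104591471, plus strand: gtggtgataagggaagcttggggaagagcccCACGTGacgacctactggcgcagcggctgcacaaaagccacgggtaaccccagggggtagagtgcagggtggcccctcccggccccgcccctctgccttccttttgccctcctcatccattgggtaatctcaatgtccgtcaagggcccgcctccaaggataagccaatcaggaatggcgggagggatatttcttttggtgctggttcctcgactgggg
All 10 genes had an entry, and for Mpc1, Pdk1 and Pdk2, which have more than 1 start site in that table, every site was searched. The motifs were read on both strands. CACGTG lay before 2 of the 10 genes, against 6.86% of the 27025 genes searched in the same way. The motif AAGGTCA of estrogen-related receptors lay before 0 of 10 (4.70% of all genes), the cAMP response element TGACGTCA before 0 of 10 (1.77%), the NRF1 motif GCGCATGCG before 0 of 10 (1.64%), and the forkhead motif GTAAACA before 0 of 10 (3.54%). Each window shows letters only, and whether any factor binds there was not measured.

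The first question was what 3 weeks at 5 °C did to these transcripts in BAT. Transcripts of the pyruvate carrier and of the body of PDH rose together. Both carrier genes, the 4 PDH subunit genes among the 10 and Pdk1 had means between 2.60-fold and 5.64-fold higher in BAT_5C. Pdk2 and Pdk4, the kinase genes with the higher levels per length, rose less, by 0.58 and 0.60 on the log2 scale. In all, 9 of the 10 genes rose and none fell by edgeR's quasi-likelihood test (Benjamini-Hochberg adjusted p below 0.05 over 16213 genes), where 29.2% of all genes tested rose and 30.3% fell. The median log2 fold change of the 10 was 1.51, against -0.05 over all genes. For 8 of the 10 every BAT_5C library lay above every BAT_30C library, as for 26.3% of all genes, and Pdk4 and Pdp2 were the exceptions. In bulk tissue, more cells of a type and more RNA per cell cannot be told apart.

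**Figure D1:**
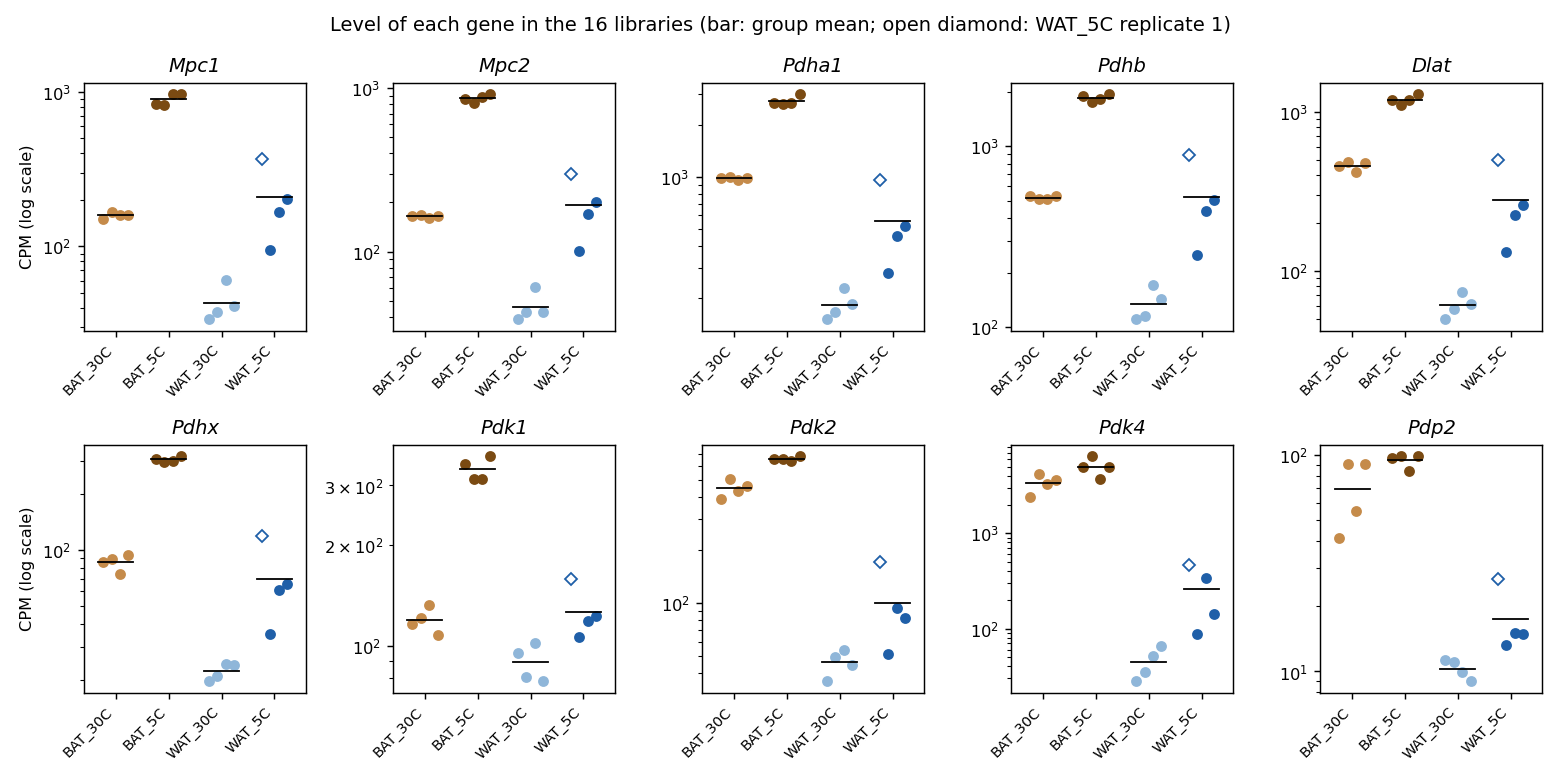
Level of each of the 10 genes in the 16 libraries, in CPM on a log axis, by group. Points are libraries, bars are group means, and the open diamond is WAT_5C replicate 1, the highest WAT_5C library for all 10 genes. BAT_5C has the highest and WAT_30C the lowest mean in every panel.

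Mpc1 stood at 150.4, 166, 160.2 and 159 CPM in BAT_30C replicates 1 to 4 and at 836, 821, 966 and 965 CPM in BAT_5C. Its partner Mpc2 went from 164, 169, 161 and 165 CPM to 864, 807, 889 and 924 CPM. For both genes every cold library lay far above every warm one. The log2 fold changes were 2.52 ± 0.08 (SE, adjusted p = 3.24e-08, edgeR) for Mpc1 and 2.43 ± 0.06 (adjusted p = 2.15e-08) for Mpc2. Set against each other per kilobase of exon (CPM divided by the summed length of all annotated exons), Mpc1 was 3.41 ± 0.13 (SD, n = 4) times Mpc2 in BAT_30C and 3.63 ± 0.18 times in BAT_5C. The means of Mpc1 and Mpc2 were 5.64-fold and 5.29-fold higher in the cold, while the ranges of their ratio overlapped.

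Of the E1 genes, Pdha1 was at 986, 997, 956 and 989.8 CPM in BAT_30C and at 2671, 2616, 2662 and 3004 CPM in BAT_5C. Pdhb was at 528, 509, 508 and 530.1 CPM and then at 1888, 1748, 1826 and 1945 CPM. The warm libraries were close together, with coefficients of variation of 1.82% and 2.28%, and the cold ones lay above them all. Pdha1 rose by 1.51 ± 0.07 (SE) on the log2 scale (adjusted p = 1.85e-07, edgeR) and Pdhb by 1.86 ± 0.06 (adjusted p = 3.93e-08). The level of Pdha1 per kilobase was 1.96 ± 0.05 (SD, n = 4) times that of Pdhb in the warm and 1.53 ± 0.06 times in the cold, and these ratios did not overlap.

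Dlat, the E2 core, had 454, 479, 416 and 478 CPM in BAT_30C and 1176, 1102, 1181 and 1294 CPM in BAT_5C. Pdhx, which holds E3 on the core, had 86.4, 89.1, 74.6 and 94.0 CPM and then 308, 296, 301 and 319.7 CPM. Both were higher in every cold library, by 1.41 ± 0.08 (SE) on the log2 scale for Dlat (adjusted p = 5.34e-07, edgeR) and by 1.86 ± 0.08 for Pdhx (adjusted p = 1.54e-07). The ratio of Dlat to Pdhx per kilobase went from 4.28 ± 0.17 (SD, n = 4) to 3.12 ± 0.11. Dld, the E3 enzyme that PDH shares with the other 2-oxoacid dehydrogenases, rose by 1.13 on the log2 scale (adjusted p = 1.01e-06), the smallest rise among the 5 genes of the complex.

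The kinases split. Pdk1 had 116, 121, 132 and 108 CPM in BAT_30C and 347, 314, 314 and 368 CPM in BAT_5C, a rise of 1.52 ± 0.08 (SE) on the log2 scale (adjusted p = 5.32e-07, edgeR) next to 1.51 for Pdha1. Pdk2 had 388, 506, 434 and 459 CPM and then 654, 656, 636 and 683 CPM, a rise of 0.58 ± 0.08 (adjusted p = 0.000205). Its groups did not overlap, but with all 16 libraries in one fit its adjusted p was 0.0851. Pdk4 had 2415, 4151, 3321 and 3581 CPM in BAT_30C and 4944, 6488, 3700.4 and 4901 CPM in BAT_5C. Those ranges overlapped, since BAT_30C replicate 2 lay above BAT_5C replicate 3. Its change of 0.60 ± 0.19 passed the test at an adjusted p of 0.0221, but not without BAT_5C replicate 2 (0.46, adjusted p = 0.0601), not with unscaled library totals (0.23, adjusted p = 0.282), not with all 16 libraries in one fit (adjusted p = 0.278) and not in the 4 BAT libraries whose labels all match (0.43, adjusted p = 0.318). Pdk3, the fourth kinase gene, was at 1.59 to 2.89 CPM and then at 3.00 to 3.93 CPM, and rose by 0.73 (adjusted p = 0.0118).

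On the phosphatase side no rise of Pdp2 was called: its log2 fold change was 0.47 ± 0.23 (SE, adjusted p = 0.105, edgeR). The warm libraries lay in 2 pairs, replicates 1 and 3 at 41.4 and 54.9 CPM and replicates 2 and 4 at 90.6 and 91.1, and the cold ones were at 96.7, 98.8, 84.0 and 99.0 CPM. Without BAT_30C replicate 2 or without replicate 4 the change passed the test (0.64, adjusted p = 0.0453, and 0.65, adjusted p = 0.0398), as it did with DESeq2 (0.49, adjusted p = 0.0441). Pdp1, the other phosphatase gene, fell by 0.43 (adjusted p = 0.00506), with 13.2 to 15.5 CPM in the warm and 8.99 to 11.3 in the cold. Pdpr, whose product is known to restrain the phosphatase, changed by -0.10 (adjusted p = 0.491).

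Libraries scaled only by their totals gave BAT fold changes that were 0.38 lower at the median of all genes, and the genes called then split into 2323 rising and 8831 falling, against 4741 and 4906 with TMM. Under that scaling 8 of the 10 genes still rose and none fell. Skeletal muscle genes (13 genes) had geometric means between 0.215 and 54.2 CPM in BAT_30C, and between 0.208 and 82.0 in BAT_5C. Adipocyte genes (6 genes) had 1149 to 1248 CPM and then 1218 to 1380.0 CPM, and brown adipocyte genes (10 genes, 7 called rising and 2 falling) had 53.0 to 81.5 CPM and then 212 to 318 CPM. T and NK cell genes (12 genes, 7 called falling) had 0.696 to 1.01 CPM and then 0.264 to 0.586, and endothelial genes (6 genes, 4 called rising and 1 falling) had 107 to 133.0 CPM and then 133.2 to 140 CPM. Of 4 white adipocyte genes tested 3 fell, Lep, Agt and Retn. No macrophage, B cell, mammary or muscle gene tested was called by edgeR. The part of these cell types in the rises was not tested.

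In WAT all 10 genes had higher means in the cold, but calls with all 8 libraries depended on the tool. By edgeR's test 0 of the 10 passed (0 rose and 0 fell), where 12 of 18975 genes, or 0.0632%, rose and none fell; at an unadjusted p below 0.05 it was 10 of 10, against 18.1% of all genes. DESeq2 called 8 of the 10, against 5.9% of all genes, and limma-voom with library quality weights called 10, against 12.0%. The median log2 fold change was 1.78, against -0.01 over all genes. For 9 of the 10, Pdk2 excepted, every WAT_5C library lay above every WAT_30C library, as for 9.42% of all genes. WAT_5C replicate 1 was the highest cold library for all 10 genes and WAT_5C replicate 2 the lowest for all 10.

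Without WAT_5C replicate 1, 6 of the 10 rose: Mpc1, Mpc2, Pdha1, Pdhb, Dlat and Pdhx, the 2 carrier genes and the 4 PDH subunit genes among the 10. Dld did not pass (0.97, edgeR adjusted p = 0.0507), nor did the kinase genes and Pdp2, although the difference of Pdk4 was larger than that of any of the 6. Whether these genes differed from each other was not tested. Over all genes 1.84% rose in that fit, and 0.274% fell. The median of the 10 was then 1.37, against -0.02 over all genes, and 9 of 10 did not overlap, against 13.4%. Leaving out WAT_5C replicate 2 in its place gave 7 of 10, the same 6 and Pdk4. On leaving out any 1 WAT library, between 0 and 408 of all genes passed.

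**Figure D2:**
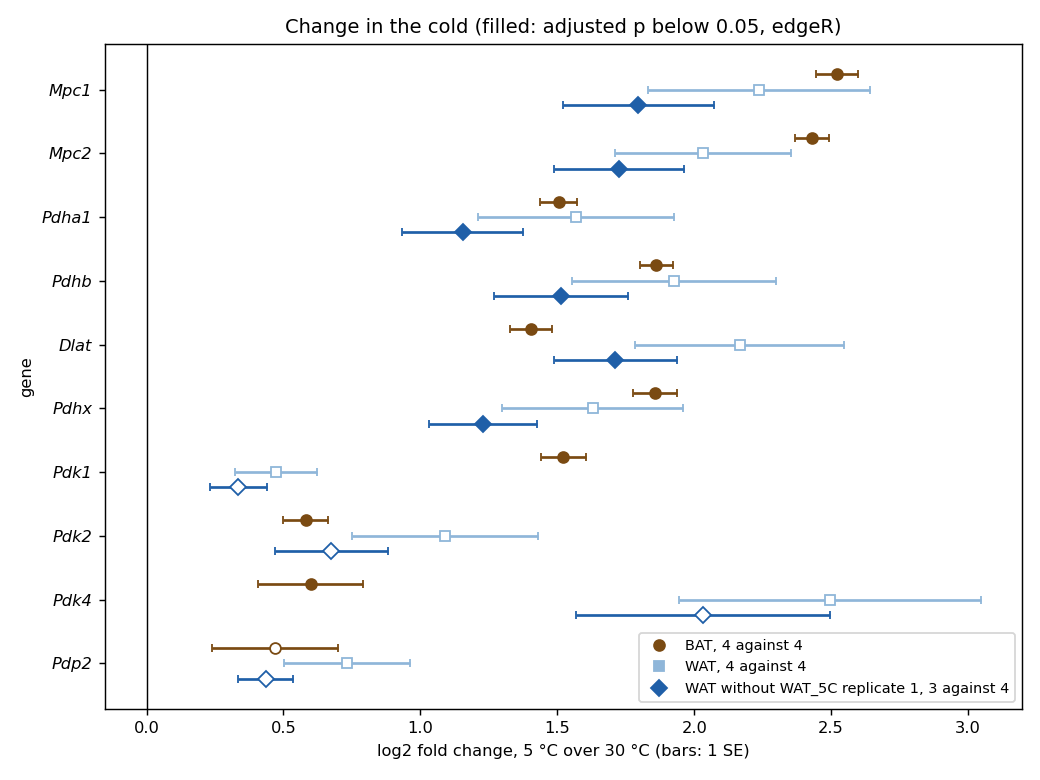
Log2 fold change from 30 °C to 5 °C (x axis) with 1 SE, for each gene, in BAT, in WAT with all 8 libraries and in WAT without WAT_5C replicate 1. Filled symbols passed an adjusted p of 0.05 by edgeR: 9 of 10 in BAT, 0 of 10 in WAT with all libraries and 6 of 10 in WAT without that library.

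Mpc1 was at 33.8, 37.6, 60.8 and 41.2 CPM in WAT_30C and at 366, 94.7, 167 and 203 CPM in WAT_5C. Its log2 fold change was 2.24 ± 0.41 (SE, adjusted p = 0.0948, edgeR), and 1.80 ± 0.28 without replicate 1 (adjusted p = 0.0248). Mpc2 was at 38.5, 42.9, 60.4 and 42.5 CPM and then at 298, 101, 169 and 201 CPM, a difference of 2.03 (adjusted p = 0.0708), or 1.73 without replicate 1 (adjusted p = 0.0197). No cold library of either carrier gene fell to the level of a warm one, and the spread lay among the cold libraries. Mpc1 was 3.29 ± 0.23 (SD, n = 4) times Mpc2 per kilobase in WAT_30C and 3.46 ± 0.12 (n = 3) times in WAT_5C without replicate 1, in which it was 4.34 times.

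Dlat had the lowest adjusted p of the 10 without replicate 1. It was at 49.5, 57.8, 73.9 and 61.4 CPM in WAT_30C and at 494, 131, 223 and 259.8 CPM in WAT_5C, for a log2 fold change of 2.17 (adjusted p = 0.0913, edgeR) with all libraries and 1.71 ± 0.23 (SE, adjusted p = 0.0174) without. Pdha1 was at 151, 167, 230.4 and 186 CPM and then at 953, 279.5, 459 and 525 CPM, with 1.57 (adjusted p = 0.135) and 1.15 (adjusted p = 0.0464). Here too the lowest cold library, replicate 2, lay above the highest warm one. Pdhb, its partner in E1, changed by 1.93 (adjusted p = 0.112) and 1.51 (adjusted p = 0.0291), and Pdhx by 1.63 (adjusted p = 0.119) and 1.23 (adjusted p = 0.0275). The ratio of Pdha1 to Pdhb per kilobase was 1.41 ± 0.07 (SD, n = 4) in WAT_30C and 1.10 ± 0.04 in WAT_5C (1.11 without replicate 1), the same direction as in BAT. With the longest annotated transcript of each gene in place of all exons it was 1.14 and 0.892. Which of the 2 genes stood higher in WAT_5C thus depended on the length used. The ratio of Dlat to Pdhx was 2.18 ± 0.19 in WAT_30C and 3.12 ± 0.17 in WAT_5C (3.05 without replicate 1), the opposite direction to BAT.

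Among the WAT kinases, Pdk4 had 28.0, 35.4, 51.0 and 65.0 CPM in WAT_30C and 463, 87.9, 339 and 141 CPM in WAT_5C. The groups did not overlap, yet the cold libraries were spread widely, and the log2 fold change was 2.50 ± 0.55 (SE, adjusted p = 0.131, edgeR) with all libraries and 2.03 ± 0.46 (adjusted p = 0.0673) without replicate 1. Pdk1 had 95.5, 80.9, 102 and 78.4 CPM and then 157, 106, 118 and 123 CPM, a difference of 0.47 (adjusted p = 0.210), or 0.34 without replicate 1 (adjusted p = 0.115). Pdk2 had 36.1, 49.3, 54.4 and 44.7 CPM and then 172, 51.8, 93.9 and 82.0 CPM. Its groups overlapped, because WAT_5C replicate 2 lay below WAT_30C replicate 3, and its difference was 1.09 (adjusted p = 0.208), or 0.67 without replicate 1 (adjusted p = 0.113). Pdp2 had 11.3, 11.04, 9.94 and 9.01 CPM and then 26.7, 13.2, 15.004 and 14.8 CPM, with 0.73 (adjusted p = 0.210) and 0.43 (adjusted p = 0.0689).

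Marker levels of several cell types also differed among the WAT libraries, not always in the order of the 10 genes. Over the 6 adipocyte genes the geometric mean was 322 to 523 CPM in WAT_30C, 1476 CPM in WAT_5C replicate 1, and 435, 635 and 669 CPM in replicates 2, 3 and 4. Over the 10 brown adipocyte genes it was 0.864 to 1.41 CPM in WAT_30C and 14.0, 3.91, 15.8 and 10.5 CPM in WAT_5C replicates 1 to 4. Replicate 2, the lowest cold library for all 10 genes, was thus also the lowest for both of these lists. T and NK cell genes (12 genes) were at 32.97 to 46.1 CPM in WAT_30C, 7.52 CPM in WAT_5C replicate 1 and 26.2 to 30.6 CPM in the others. Skeletal muscle genes were at 5.49 to 163 CPM in WAT_30C, 132 CPM in WAT_5C replicate 1 and 0.539 to 8.996 CPM in the others. Macrophage genes (8 genes) were at 70.3 to 100.4 CPM in WAT_30C, 76.7 CPM in WAT_5C replicate 1 and 100.8 to 142 CPM in the others. Endothelial genes (6 genes) were at 49.5 to 69.3 CPM, then 90.7 CPM, and 66.4 to 72.2 CPM in the others. B cell genes (6 genes) were at 116 to 169 CPM, then 43.0 CPM, and 108 to 161 CPM in the others. The part of any of these in the WAT differences was not tested.

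The design also asks whether cold acted differently on the 2 tissues. The difference of the temperature effects (WAT minus BAT, edgeR, all 16 libraries in one fit) passed the test for 2 of the 10: Pdk1, whose effect was 1.02 ± 0.18 (SE) lower in WAT on the log2 scale (-1.02, adjusted p = 0.000975), and Pdk4, whose effect was 1.93 ± 0.61 higher in WAT (adjusted p = 0.0355). Over all genes 20.8% passed, 12.5% with a higher effect in WAT and 8.34% with a lower one, so the count of 2 does not stand apart from the background. The median difference was 0.10 for the 10 genes and 0.12 for all genes. For Pdk1 the call held without WAT_5C replicate 1 (-1.20 ± 0.14, adjusted p = 3.00e-05). For Pdk4 it did not (1.43 ± 0.52, adjusted p = 0.0504), and it was also lost on leaving out any one of 10 other libraries: BAT_30C replicate 2, 3 or 4, BAT_5C replicate 1, 3 or 4, WAT_30C replicate 1, 2 or 3, or WAT_5C replicate 3. Pdk3, which is outside the 10, had an effect that was lower in WAT (-1.05, adjusted p = 0.0250, and -0.91 without WAT_5C replicate 1, adjusted p = 0.010003).

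For the carrier and the complex with all libraries, the difference ran from -0.36 ± 0.33 for Mpc2 to 0.79 ± 0.40 for Dlat, and none was called. Without WAT_5C replicate 1, Mpc2 (-0.71 ± 0.25, adjusted p = 0.0408) and Pdhx (-0.64 ± 0.22, adjusted p = 0.0372) had effects called lower in WAT, as did Pdk1, which makes 3 of 10. Of all genes 31.3% passed in that fit, 15.6% with a higher and 15.7% with a lower effect in WAT. The count of 3 is thus near the share of all genes that passed. Mpc1 did not pass (-0.74 ± 0.29, edgeR adjusted p = 0.0683). Pdha1 and Pdhb changed sign, from 0.09 and 0.10 to -0.36 and -0.36, and neither passed in either fit. Pdp2 also changed sign, from 0.29 to -0.045. Without WAT_5C replicate 2 the effect on Dlat was called higher in WAT (1.03, edgeR adjusted p = 0.0267).

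Between tissues at one temperature, all 10 genes were higher in BAT. At 30 °C, 10 of 10 passed and did not overlap, where 34.5% of all genes were called higher in BAT, 35.3% lower, and 32.2% lay higher without overlap. The median was 2.21, against -0.03 over all genes. Pdk4 differed most, with a mean of 3367 ± 723 CPM (SD, n = 4) in BAT_30C against 44.8 ± 16.5 CPM in WAT_30C, a log2 difference of 6.26 ± 0.53 (SE, adjusted p = 1.35e-07, edgeR). Pdk2 came next at 3.31 (adjusted p = 1.47e-07), then Dlat at 2.94 and Pdp2 at 2.79. Pdk1 differed least, at 0.45 (adjusted p = 0.00490), and with unscaled library totals, under which the median of all genes was 0.85 lower, its direction reversed (-0.40, adjusted p = 0.000991). Pdk3 was lower in BAT, by -2.11 on the log2 scale (adjusted p = 1.13e-06).

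At 5 °C all 10 were again higher in BAT without overlap, where 31.8% of all genes were called higher in BAT, 40.5% lower, and 27.2% lay higher without overlap. The differences ran from 1.46 ± 0.13 for Pdk1 (adjusted p = 1.33e-07, edgeR) to 4.33 ± 0.49 for Pdk4 (adjusted p = 1.73e-06), with a median of 2.20 against -0.19 over all genes. Without WAT_5C replicate 1 the range was 1.58 to 4.77, the 10 still did not overlap, and of all genes 34.0% were called higher, 42.2% lower, and 32.8% lay higher without overlap. Adipocyte genes were higher in BAT_30C than in WAT_30C, but those of BAT_5C overlapped WAT_5C through replicate 1 (values above). T and NK cell genes were lower in every BAT library than in every WAT library, and B cell genes (6 genes) were at 0.411 to 1.41 CPM in BAT and at 43.0 to 169 CPM in WAT. The part of tissue makeup in the tissue differences was not tested.

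By group means the order was WAT_30C lowest and BAT_5C highest for all 10 genes, with a span from 3.76-fold for Pdk1 to 112-fold for Pdk4. WAT_5C had a higher mean than BAT_30C for Mpc1, Mpc2, Pdhb and Pdk1, and a lower one for the other 6. Those 4 directions rested on WAT_5C replicate 1: without it the WAT_5C means were 154.9 CPM for Mpc1, 156.9 for Mpc2, 396.9 for Pdhb and 115.8 for Pdk1, and the BAT_30C mean was higher for all 10 genes. Those neighbours overlapped for all but Pdha1, Pdk2, Pdk4 and Pdp2: Mpc1, for instance, was at 150.4 to 166 CPM in BAT_30C and at 94.7 to 366 CPM in WAT_5C.

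**Figure D3:**
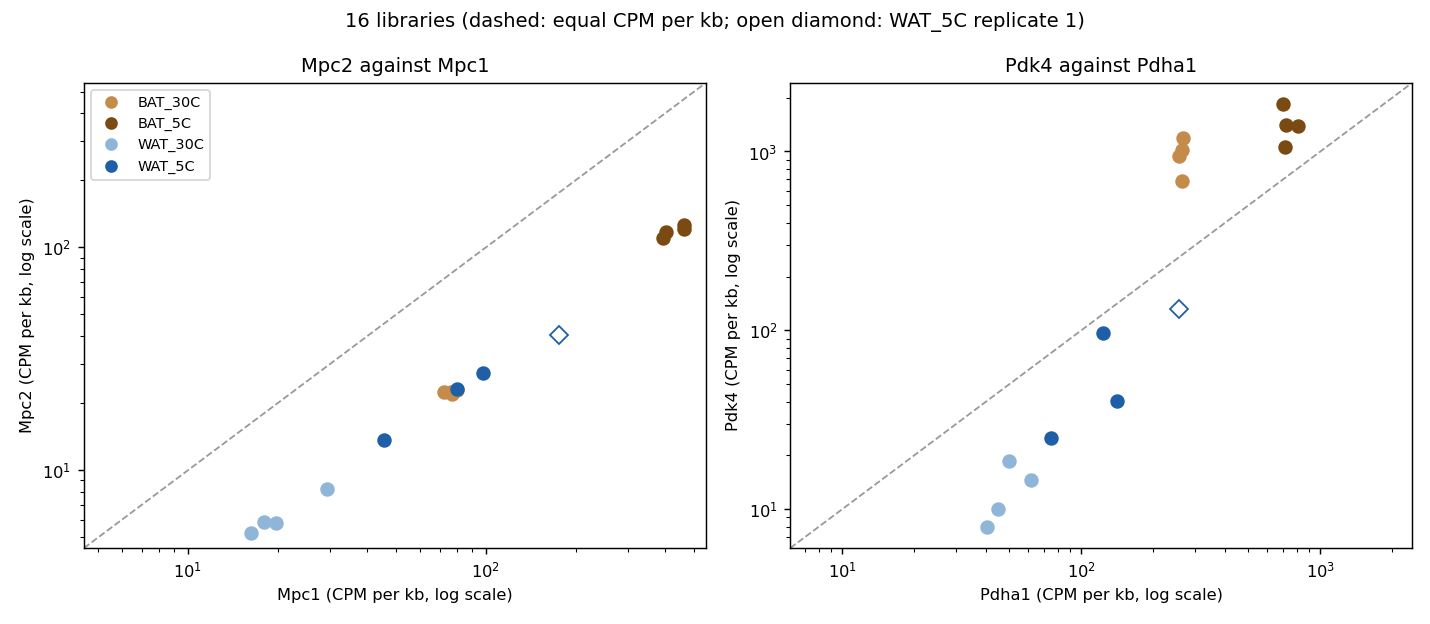
Mpc2 against Mpc1 (left) and Pdk4 against Pdha1 (right) in the 16 libraries, as CPM per kilobase of exon on log axes, with a dashed line of equal levels. On the left the libraries follow a line below the dashed one, with Mpc1 between 3.09 and 4.34 times Mpc2. On the right BAT libraries lie above the dashed line and WAT libraries below it.

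The kinase family was made up differently in the 2 tissues. As a share of the summed level per kilobase of Pdk1, Pdk2, Pdk3 and Pdk4, Pdk4 made up 85.7% ± 1.7 (SD, n = 4) in BAT_30C and 84.6% ± 2.8 in BAT_5C, ranges that overlapped. It made up 29.4% ± 7.6 in WAT_30C and 54.9% ± 12.0 in WAT_5C (52.1% over the 3 libraries without replicate 1). Pdk1 went from 1.41% ± 0.32 to 2.64% ± 0.51 in BAT, and from 27.4% ± 5.4 to 15.5% ± 6.5 in WAT (17.4% without replicate 1). Pdk2 held 12.9% ± 1.4 and 12.7% ± 2.3 in BAT, and 34.3% ± 3.8 and 26.2% ± 4.2 in WAT (26.3% without replicate 1). Pdk3 was at most 0.102% in every BAT library and held 8.85% ± 1.44 in WAT_30C and 3.33% ± 2.57 in WAT_5C (4.17% without replicate 1). These shares depend on the length used: with the longest annotated transcript of each gene in place of all exons, Pdk4 made up 81.0%, 79.5%, 23.0% and 46.7% of the 4 groups in the same order.

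**Figure D4:**
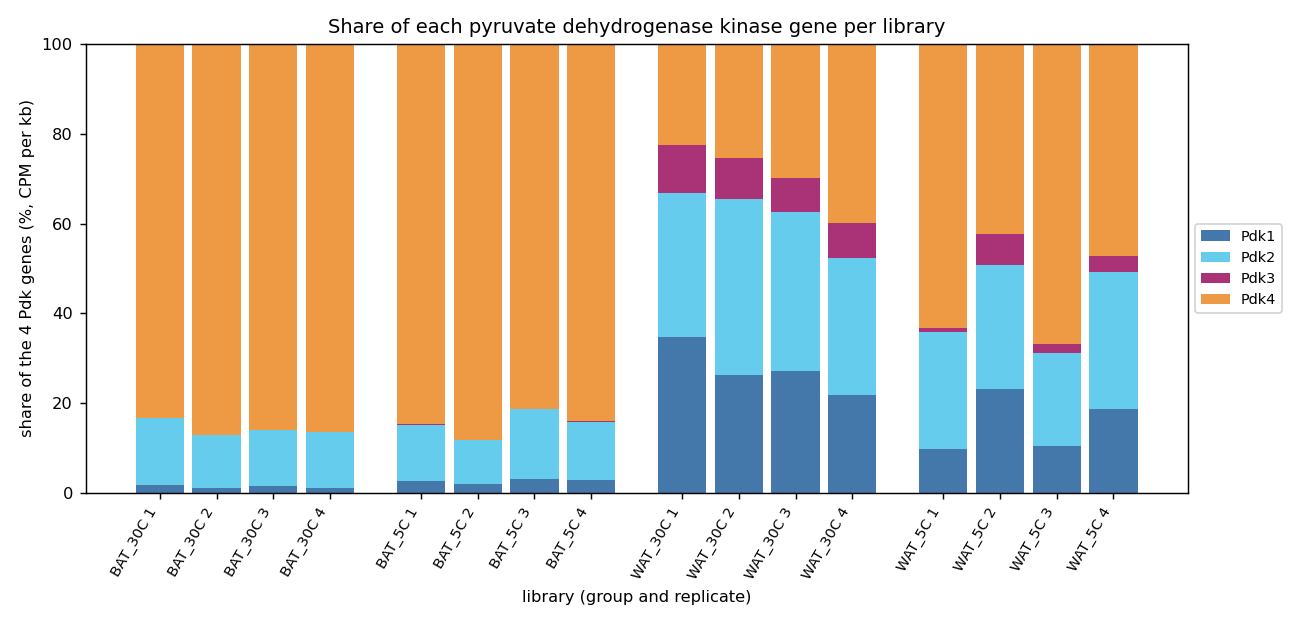
Share of each Pdk gene in the summed CPM per kilobase of the 4 kinase genes (y axis, percent), for each of the 16 libraries by group and replicate. Pdk4 fills 81.3% to 88.1% of each BAT library, while in WAT it rises from a mean of 29.4% in the warm to 54.9% in the cold.

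Set against the enzyme they act on, the summed kinase transcripts, in BAT mostly Pdk4, stood lower relative to Pdha1 in cold than in warm BAT. The summed level of the 4 kinase genes per kilobase was 4.24 ± 0.82 (SD, n = 4) times that of Pdha1 in BAT_30C, with libraries from 3.13 to 5.09, and 2.30 ± 0.51 times in BAT_5C, with libraries from 1.82 to 2.99. Those ranges did not overlap. In WAT the ratio was 0.870 ± 0.061 in the warm and 0.846 ± 0.239 in the cold (0.856 without replicate 1), ranges that overlapped. For Pdk4 alone over Pdha1 the means were 3.64 and 1.96 in BAT, where the ranges met (2.61 to 4.43 and 1.48 to 2.64). In WAT they were 0.257 and 0.480 (0.468 in the cold without replicate 1), and the ranges overlapped there too (0.196 to 0.372 and 0.285 to 0.785). Pdp2 was 3.75 ± 1.11 times Pdp1 per kilobase in BAT_30C and 7.18 ± 0.94 times in BAT_5C, and 0.711 ± 0.143 and 1.28 ± 0.32 times in WAT (1.13 in the cold without replicate 1). The ratio of the summed kinase genes to the sum of Pdp1 and Pdp2 did not fall. It was 74.7 ± 11.7 in BAT_30C and 88.1 ± 12.6 in BAT_5C, ranges that overlapped. In WAT it was 9.64 ± 1.23 in the warm and 22.2 ± 8.4 in the cold (20.1 without replicate 1), ranges that did not overlap. A ratio within a library shows unequal levels or unequal change only, and no test was made of these ratios.

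The rest of the pathway was read from lists chosen by function, also with earlier results known. Their counts in BAT stand beside 29.2% of all genes rising and 30.3% falling. In BAT, genes of acetyl-CoA use and export rose, led by Acly (4.13 on the log2 scale, adjusted p = 5.40e-08, edgeR), which makes cytosolic acetyl-CoA from citrate, and the citrate carrier gene Slc25a1 (2.98, adjusted p = 3.40e-07). Crat, which buffers acetyl-CoA as acetylcarnitine, rose by 1.09 and the citrate synthase gene Cs by 0.33. Of 12 genes of pyruvate supply and other fates of pyruvate, 8 rose and 3 fell, and Me3 passed in neither direction. Ldha (2.30), which interconverts pyruvate and lactate, Pkm (2.22), which makes pyruvate, and Me1 (3.69), which makes it from malate, rose. The monocarboxylate carrier gene Slc16a7 (-4.04, adjusted p = 1.21e-06) and the alanine aminotransferase genes Gpt (-0.77) and Gpt2 (-0.69) fell.

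Lipoate and thiamine diphosphate are cofactors of PDH. Of 8 genes tested that supply them, 5 rose and none fell in BAT, among them Lipt1 (1.25, adjusted p = 2.98e-06, edgeR), which attaches lipoate, Lias (0.49), which makes it, and Mecr (0.57) and Mcat (0.47) of mitochondrial fatty acid synthesis, which feeds it. Of 8 genes of the sister 2-oxoacid dehydrogenases and their control, 6 rose, such as Ogdh (1.18), Bckdha (1.17), Dlst (0.99) and Dbt (0.92), which encode their subunits, and Dhtkd1 (-1.17) and Ppm1k (-0.69) fell. Of 6 other genes of PDH and its control tested, 2 rose (Dld and Pdk3), 1 fell (Pdp1) and 3 did not pass, shares near those of all genes. The same holds of 14 regulators known to act on Pdk genes, of which 4 rose, 3 fell and 7 did not pass, so neither count stands apart from the background. Among the regulators Esrra (1.01), Ppard (0.97) and Hif1a (0.77) rose, and Ppara (-1.19), Thra (-0.49) and Foxo3 (-0.44) fell.

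With all 8 WAT libraries 0 of the 54 genes of these lists passed edgeR's test, 29 had an unadjusted p below 0.05 (18.1% of all genes did), DESeq2 called 21 (5.9% of all genes) and limma-voom 24 (12.0%). Without WAT_5C replicate 1, Acly (2.40, edgeR adjusted p = 0.0158) and Slc25a1 (1.92, adjusted p = 0.0265) rose among the genes of acetyl-CoA use, as did Me1 (2.66, adjusted p = 0.0275) and Bckdha (0.95, adjusted p = 0.0445) from the other lists. No regulator, cofactor gene or other PDH gene passed in that fit. The difference of temperature effects (WAT minus BAT, all 16 libraries in one edgeR fit) was also read for the 14 regulators. In WAT 1 had a higher effect called (Ppara) and 2 a lower one (Ppard and Hif1a). Over all genes 12.5% and 8.34% did, so these counts do not stand apart from the background. Without WAT_5C replicate 1 the calls were 3 higher and 3 lower, against 15.6% and 15.7% of all genes. Of the 14, Ppara, a receptor for fatty acids, had the widest difference (3.90, edgeR adjusted p = 0.00141, and 3.27 without WAT_5C replicate 1, adjusted p = 0.000987).

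Lastly, the genes closest in pattern to 3 of the 10 were sought among 10902 protein-coding genes by the root mean square difference of centred log2(CPM + 0.5) values over the 16 libraries. Closest to Pdk4 were Pank1 (0.361), Plin5 (0.380) and Cox8b (0.462), and they were also the closest 3 over the 15 libraries without WAT_5C replicate 1. Closest to Pdhb were Pdhx (0.158), Gbe1 (0.171) and Mpc2 (0.228), also the closest 3 without that library. Closest to Pdk1 were Nsun3 (0.153), Atp6v0a2 (0.156) and Cux1 (0.161), whose places were 4, 2 and 5 without it. The values describe likeness over libraries that share tissue and temperature, and were not tested.

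Some counts could hold reads of other genes. Of all 50-base windows of the annotated transcripts, 26.3% for Mpc1, 12.9% for Pdha1 and 11.4% for Pdhb also occur, on either strand, in a transcript of another gene, against 1.40% or less for the other 7. For Mpc1 these include an overlapping gene on the opposite strand, 4930506C21Rik (at most 6.76 CPM in any library), and the pseudogene Mpc1-ps (at most 8.20 CPM). For Pdha1 they include Map3k15 on the opposite strand (at most 3.11 CPM). Whether strand was used in counting is not given in the sources used here.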

How the data were processed

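The authors deposited 1 table of raw read counts for 46078 Ensembl gene IDs in 16 libraries, all whole numbers; per the labels, RNA was poly(A) selected and libraries were made with a TruSeq kit. Trim Galore and TopHat are named in the submitters' processing notes; the sources used here do not give versions, counting tool, strand setting or genome build. IDs were matched to symbols through a supplied table of gene names (45143 named; the other 935 held 0.0403% to 0.1165% of counts). Exon lengths and shared 50-base windows come from GENCODE release M21. Marker levels are geometric means of CPM + 0.1.

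Groups came from titles and housing labels. Counts were tested with edgeR 4.0.16 (R 4.3.3): filterByExpr with a minimum count of 10 (total 15), TMM, the quasi-likelihood F-test, two-sided, Benjamini-Hochberg over all genes tested, threshold 0.05. BAT and WAT were fitted apart for temperature, and all 16 libraries together for the difference of effects and for tissue. The SE was taken as log2 fold change divided by the root of F, without sign. Alternatives were RLE factors, library totals, no filter, DESeq2 1.42.0, limma-voom (limma 3.58.1), a replicate block, each library left out, 1 fit of all libraries, the 4 matching BAT libraries and a threshold of 0.01. The fit was also run on simulated counts, with an outcome not given here. Those counts held no library as unlike the rest as WAT_5C replicate 1, so that run cannot speak to the WAT calls.

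The 10 genes and all lists were chosen with earlier results of these data known. Beyond the 10, Dld, Pdk3, Pdp1, Pdpr and up to 4 genes of each other list with the lowest adjusted p are named; Gpt, Gpt2, Me3, Dhtkd1, Ppm1k, Foxo3 and Ppara were named after their values were seen. The 24 pairs of libraries within groups all differed beyond counting noise (chi-square over degrees of freedom at least 19.9). Libraries of equal number did not deviate together: their correlations ran from -0.461 to 0.301. Of 150 listed symbols, markers included, 147 matched. The result of 1 listed gene is not reported here.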

Additional observations from a re-analysis of the deposited data

Results flagged for a closer look

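Of 40 sets of 4 libraries (10 genes in 4 groups), 3 had 1 library far from the others, where chance gives about 1 in 20. Pdha1 in BAT_5C was highest in replicate 4 (3004 CPM, the others 2616 to 2671), with a gap of 0.860 of the group's range. Pdp2 in BAT_5C was lowest in replicate 3 (84.0 CPM, the others 96.7 to 99.0), with a gap of 0.846 of the range. Pdp2 in WAT_5C was highest in replicate 1 (26.7 CPM, the others 13.2 to 15.004), with a gap of 0.868.

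The effect of cold differed between tissues by edgeR's test for 2 of the 10 genes, next to 20.8% of all genes. That count does not stand apart from the background. For Pdk1 the log2 effect in WAT minus that in BAT was -1.02, and for Pdk4 it was 1.93. The Pdk4 call was lost without WAT_5C replicate 1 (1.43, edgeR adjusted p = 0.0504) and on leaving out any one of 10 other libraries.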

How the results depend on the processing

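In BAT, 151 of 160 values of the 10 genes under other settings kept their direction and side of the threshold, 5 fell below it, 4 rose past it and none reversed; over all genes 6058 passed in the 4 matching libraries, against 9647. In WAT 107 of 150 did, the other 43 passed the threshold, and none reversed. The members passing there were 3 with library totals, 8 with DESeq2, 10 with limma-voom and 9 with all 16 libraries in one fit, and 0 to 7 on leaving out 1 library; over all genes 82, 1119, 2268 and 1587 passed, 25 without the filter, 0 at 0.01 and 0 to 408 on leaving out 1 library, against 12. For the difference of effects 199 of 220 held, 12 fell below the threshold, 3 passed it and 6 reversed: Pdha1 (-0.21) and Pdhb (-0.19) with limma-voom, Pdha1, Pdhb and Pdp2 without WAT_5C replicate 1, and Pdhx without WAT_5C replicate 2. On leaving out 1 library they ran from -0.36 to 0.32 (Pdha1), -0.36 to 0.33 (Pdhb), -0.64 to 0.028 (Pdhx) and -0.045 to 0.48 (Pdp2). Of the 10, 1 passed at 0.01 and 1 to 3 on leaving out 1 library; over all genes 6797 passed with limma-voom, 2109 at 0.01 and 3221 to 6222 on leaving out 1 library, against 4055. Between tissues at 30 °C 219 of 220 held, and Pdk1 reversed with library totals (-0.40); at 5 °C all 220 did. The causes were not tested.

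Library totals lowered the median of all genes by 0.25 in WAT cold, 0.85 for the tissues at 30 °C and 0.93 at 5 °C, where 2505 genes were then higher and 12875 lower (6712 and 6884 with TMM), and 2118 and 13882 (6201 and 7897); for the difference of effects it was 2608 and 1080, and 2056 and 2099 with RLE factors (2431 and 1624). With a replicate block Pdp2 also passed in BAT (0.54, adjusted p = 0.0473, edgeR), and 0 genes of all passed in WAT. For the difference of effects Pdk4 did not pass with that block (1.89, adjusted p = 0.0779, edgeR). Equal numbers matched best in 6 of 24 pairs. Most of those pairs set a 30 °C library against a 5 °C one, so this cannot tell whether equal numbers share an animal. With longest transcripts as lengths, a choice made after seeing the data, 23 of 48 ratios and shares moved by more than 1 SD. In WAT the calls depended on the tool and on WAT_5C replicates 1 and 2.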
